A study of Mus musculus with 15 samples.

Results

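The nuclear genes for mitochondrial ribosomal proteins were followed through the knockdown of 4 RNA helicases. Members were all genes whose symbol in the deposited gene tables is Mrpl or Mrps, a number and at most a letter a, b or c, which gave 77 of 23845 genes. All 77 passed the filter on low counts and were among the 14335 genes tested. The samples came from the mouse embryonic stem cell line E14, grown on 0.2% gelatin and given 400 ng of small interfering RNA with 4 µL of Lipofectamine for 16 h before harvest at 48 h. The RNA was directed against EGFP (EGFPKD, the control for transfection) or against a helicase of the DEAD-box family, namely Ddx10 (Ddx10KD), Ddx24 (Ddx24KD), Ddx27 (Ddx27KD) or Ddx54 (Ddx54KD). Each of these 5 groups had 3 biological replicates, and poly(A) RNA was sequenced. The title of the series asks about R-loop partners and how ribosomal RNA is processed. All groups share 1 cell line and the transfection, and the labels name no untransfected cells.

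The mitochondrial ribosome makes the few proteins that mitochondrial DNA encodes, all of them core subunits of the respiratory chain and of ATP synthase. Its ribosomal RNAs come from mitochondrial DNA, but every one of its proteins is encoded in the nucleus, translated on cytosolic ribosomes and imported. Part of these proteins have bacterial homologues and the rest were added in the mitochondrial lineage. By structure, 50 members belong to the large subunit and 26 to the small subunit. Mrps30 and Mrps18a carry small subunit names but sit in the large subunit, and they were counted there. Mrps36 is a member by name only, since its protein is a component of the oxoglutarate dehydrogenase complex.

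Sequences around the start sites are given for the 4 members with the most negative mean change and the 2 called members that rose with the smallest p, because the values of these 6 genes carry much of what follows. Each runs 5′ to 3′ on the gene's own strand, from 150 bases before to 25 bases after the start that RefSeq gives on GRCm38.p6 (mm10). Capitals mark matches to the letters GCCATCTT (YY1), CCGGAAG (ETS), GCGC and TGCGC with 1 base of any kind between them (NRF1) and CACGTG (E-box), searched on both strands. These are the core letters of the sites of factors known to act at promoters of nuclear genes for mitochondrial proteins, and a match is a description of the sequence only. The stretches are Mrpl36 at chr13:73330859-73331033 on the forward strand, Mrpl12 at chr11:120484487-120484661 on the forward strand, Mrps12 at chr7:28741797-28741971 on the reverse strand, Mrpl14 at chr17:45686199-45686373 on the forward strand, Mrps17 at chr5:129715347-129715521 on the forward strand and Mrps2 at chr2:28467916-28468090 on the forward strand.
Mrpl36: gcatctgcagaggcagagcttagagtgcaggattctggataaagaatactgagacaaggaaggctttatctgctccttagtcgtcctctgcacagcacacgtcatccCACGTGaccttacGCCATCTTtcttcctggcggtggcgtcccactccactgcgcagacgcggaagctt
Mrpl12: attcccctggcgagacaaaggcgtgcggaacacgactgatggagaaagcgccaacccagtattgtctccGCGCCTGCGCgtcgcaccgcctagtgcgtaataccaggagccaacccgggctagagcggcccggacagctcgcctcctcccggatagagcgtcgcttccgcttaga
Mrps12: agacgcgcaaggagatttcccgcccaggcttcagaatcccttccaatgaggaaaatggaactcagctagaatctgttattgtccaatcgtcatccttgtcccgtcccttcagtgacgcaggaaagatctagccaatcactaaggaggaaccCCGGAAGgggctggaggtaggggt
Mrpl14: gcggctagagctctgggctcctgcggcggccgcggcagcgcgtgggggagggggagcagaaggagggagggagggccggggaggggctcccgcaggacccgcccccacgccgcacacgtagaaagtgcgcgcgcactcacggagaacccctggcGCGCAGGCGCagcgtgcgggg
Mrps17: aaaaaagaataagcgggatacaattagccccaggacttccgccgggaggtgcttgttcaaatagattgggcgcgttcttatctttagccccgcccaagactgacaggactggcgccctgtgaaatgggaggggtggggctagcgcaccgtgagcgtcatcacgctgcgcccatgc
Mrps2: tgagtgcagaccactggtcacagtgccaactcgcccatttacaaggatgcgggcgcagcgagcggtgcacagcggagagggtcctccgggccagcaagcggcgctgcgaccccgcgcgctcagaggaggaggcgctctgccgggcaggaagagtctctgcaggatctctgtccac

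The stretch of Mrpl36 held an E-box and a YY1 match, those of Mrpl12 and Mrpl14 an NRF1 match each, and that of Mrps12 an ETS match. Neither Mrps17 nor Mrps2 held any of the 4 motifs in these bases. RefSeq windows of 300 bases (250 before and 50 after a start) were found for 68 members, 74 windows in all. The ETS letters stood in 25 of them (33.8%), against 8.9% of 32851 windows of all genes and 15.9% of 13689 windows of tested genes. The NRF1 letters stood in 13 (17.6%, against 4.6% and 9.2%), the YY1 letters in 12 (16.2%, against 2.7% and 4.0%) and the E-box in 7 (9.5%, against 7.2% and 9.8%). The letters TGACGTCA (CRE) stood in 2 windows (2.7%, against 1.8% and 3.0%) and TGATGNAAT (ATF4 composite) in 0 (against 1.0% and 0.5%).

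Libraries held 26836946 to 27708782 expected counts, and the members took 0.388% to 0.437% of them. The lowest expected count of any member in any library was 128. In their own knockdowns the targets stood at 18.5% ± 4.25 (Ddx10), 30.8% ± 4.89 (Ddx24), 22.7% ± 0.818 (Ddx27) and 28.0% ± 4.68 (Ddx54) of the EGFPKD mean (SD, n = 3). All 10 embryonic stem cell markers were detected, with a summed level of 5898 to 6056 CPM (counts relative to the TMM-scaled size of the library) in EGFPKD and 5274 to 5936 CPM in the knockdowns. Summed fibroblast markers stood at 17.9 to 24.2 CPM in EGFPKD and 11.9 to 16.6 CPM in the knockdowns, with 6 of the 9 genes under 1 CPM in every group. Summed endoderm markers (7 genes, 3 under 1 CPM) stood at 7.02 to 10.2 and 5.86 to 15.9 CPM, and summed neuroectoderm markers (4 genes) at 43.4 to 53.9 and 55.8 to 99.7 CPM, in EGFPKD and the knockdowns respectively. The neuroectoderm and fibroblast sums in the knockdowns did not overlap those of EGFPKD, nor did the stem cell sums of Ddx10KD (5274 to 5641 CPM) and Ddx27KD (5460 to 5726 CPM). Single markers went both ways in the mean of the 4 knockdowns, where 5 stem cell markers were lower and 3 higher, 2 of 4 neuroectoderm markers were higher and 1 lower, and 1 of 3 tested fibroblast markers was lower. The part of these cell types in the results was not tested. In bulk RNA, fewer cells of a type and less RNA per cell cannot be told apart.

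On the TPM scale, which corrects for length and allows genes to be compared, the members spanned 30.2-fold in mean level over the 15 libraries. The median member stood at 89.0 TPM, against 14.1 TPM for the median tested gene. The highest were Mrpl42 (361 TPM), Mrpl52 (269 TPM) and Mrps18b (260 TPM), and the lowest Mrpl19 (12 TPM), Mrpl41 (12.7 TPM) and Mrpl35 (15.1 TPM). Median levels were 92.4 TPM for large subunit and 86.2 TPM for small subunit genes. Genes with bacterial homologues had a median of 102 TPM, and those specific to mitochondria 72.0 TPM.

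Over the mean of the 4 knockdowns most members fell, each by a small amount, while in single knockdowns 37 to 48 of the 77 were called lower. In the mean of the 4 knockdowns against EGFPKD, 53 of 77 members fell and 5 rose at an adjusted p under 0.05 (edgeR quasi-likelihood test with Benjamini-Hochberg adjustment over all genes, replicate number as a block), while 19 were not called. Of all 14335 genes tested in that comparison 51% were called, 25.2% lower and 25.9% higher. Among the 8619 genes in the members' range of levels, 29.1% were lower and 27.6% higher. The median log2 change was -0.15 over members and 0.00 over all genes. Members ranged from -0.47 (Mrpl36) to 0.23 (Mrps17), and none changed by 2-fold in this or any single knockdown. Without the block 43 members were lower and 3 higher, against 19.1% and 19.6% of all genes.

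The shift was visible in single libraries. The members' summed level was 4356 to 4427 CPM in the 3 EGFPKD libraries and 3865 to 4213 CPM in the 12 knockdown libraries, so the groups did not overlap. Large subunit genes summed to 2997 to 3041 CPM in EGFPKD and 2620 to 2876 CPM in the knockdowns. Small subunit genes summed to 1327 to 1357 CPM and 1215 to 1321 CPM, again without overlap. The median member lay within -0.01 and 0.01 of the EGFPKD mean on the log2 scale in the control libraries. It lay at -0.11, -0.10 and -0.18 in replicates 1 to 3 of Ddx10KD, and at -0.15, -0.15 and -0.16 in Ddx24KD. In Ddx27KD it lay at -0.15, -0.15 and -0.20, and in Ddx54KD at -0.10, -0.08 and -0.19. Replicate 3 was the lowest library in each of the 4 knockdowns. With all 5 libraries numbered 3 left out (an alternative added once the values were known) the median change in Ddx54KD was -0.09. On the first principal component of the members' log CPM, which held 51.8% of their variance, EGFPKD libraries lay between -1.30 and -1.23 and knockdown libraries between -0.27 and 0.89.

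**Figure D1:**
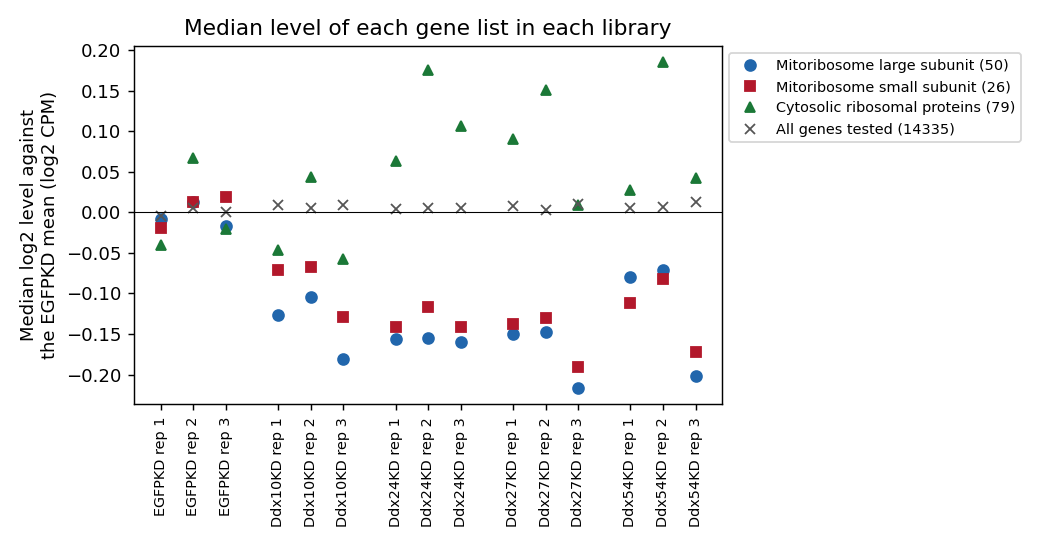
Median log2 level of each gene list in each of the 15 libraries, relative to its EGFPKD mean (vertical axis, log2 CPM; 1 point per list and library). Large and small subunit medians of the mitochondrial ribosome lie below 0 in all 12 knockdown libraries, between -0.22 and -0.07, while all genes stay between 0.00 and 0.01 in those libraries.

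After depletion of Ddx10, 40 members fell and 3 rose. Of all genes 44% were called in this comparison, 21.3% lower and 22.8% higher, and the members' median was -0.13. The called members with the smallest p were Mrpl12, Mrpl30, Mrpl36, Mrps36 and Mrpl34 among those lower, and Mrps17, Mrps2 and Mrpl23 were higher. The 3 Ddx10KD values lay below all 3 EGFPKD values for 44 members (22.4% of all genes) and above them for 2 (23.8% of all genes). Without EGFPKD replicate 3, 26 members were lower, and without the block 23 were lower and 2 higher, against 14.5% of all genes lower.

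After depletion of Ddx24, 42 members fell and 3 rose, with a median of -0.15. Of all genes 41.2% were called, 19.9% lower and 21.3% higher. Mrpl12, Mrpl36, Mrps30, Mrps36 and Mrpl40 had the smallest p among those lower, and the 3 higher members were Mrps2, Mrps17 and Mrpl52. For 47 members the Ddx24KD values lay below those of EGFPKD (19.6% of all genes), and for 3 above (21.1%). Without the block 30 members were called lower and 2 higher in Ddx24KD. On the first principal component over all genes (42.0% of the variance) replicate 2 of this knockdown lay at -2.67 and the other replicates at 10.3 and 19.2, and without it 44 members were lower and 3 higher.

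Ddx27KD gave the largest count among the single knockdowns, with 48 members lower and 4 higher and a median of -0.17. Whether this count differs from the others was not tested. Of all genes 45.8% were called, 22.6% lower and 23.3% higher. Mrpl12, Mrpl36, Mrpl15, Mrpl14 and Mrpl11 led the lower members, and Mrps2, Mrps17, Mrpl23 and Mrpl52 rose. For 50 members the values lay below EGFPKD without overlap (23.3% of all genes), and for 3 above (23.4%). Without the block 35 were lower and 2 higher, and without EGFPKD replicate 2 the count of higher members was also 2.

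After depletion of Ddx54, 37 members fell and 5 rose, with a median of -0.13. Of all genes 38.9% were called, 18.8% lower and 20% higher. Mrpl12, Mrps12, Mrpl36, Mrpl20 and Mrpl11 had the smallest p among those lower, and Mrps2, Mrpl23, Mrpl52, Mrps23 and Mrps17 rose. The values lay below EGFPKD without overlap for 31 members (19.5% of all genes) and above for 4 (20.7%). The count of lower members was 21 without Ddx54KD replicate 3, 23 without EGFPKD replicate 3, and 20 without the block, where 2 were higher (11.2% of all genes lower). The 4 comparisons share the same EGFPKD libraries, so their values stand side by side and are not independent of each other.

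**Figure D2:**
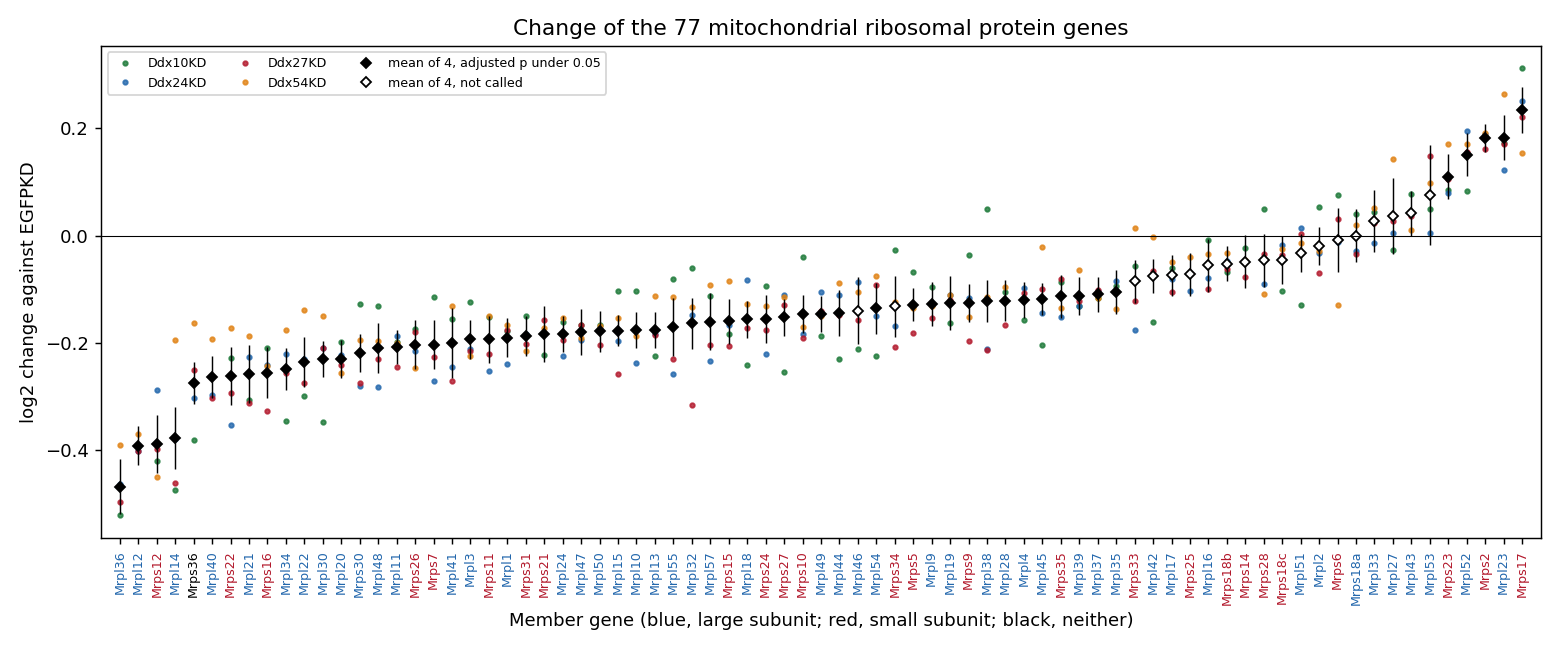
log2 change of the 77 members against EGFPKD (vertical axis), ordered along the horizontal axis by the mean of the 4 knockdowns (diamonds with SE, filled where the adjusted p is under 0.05; coloured points are the single knockdowns). The 53 called lower and 5 called higher members lie between -0.47 (Mrpl36) and 0.23 (Mrps17).

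Mrpl36, a small protein of the large subunit with a bacterial homologue, had the most negative change. Its gene spans chromosome 13, 73328513 to 73332178 (forward strand, GENCODE M21 on mm10). Its level was 48.6, 45.3 and 47.8 CPM in EGFPKD. It was 35.1, 32.1 and 31.7 CPM in Ddx10KD, 33.8, 36.4 and 32.7 CPM in Ddx24KD, 38.0, 32.8 and 30.0 CPM in Ddx27KD, and 38.6, 38.3 and 31.4 CPM in Ddx54KD. All 12 knockdown values lay below the 3 controls. The mean log2 change was -0.47 ± 0.05 (SE; edgeR adjusted p = 4.15e-07), a level 27.7% lower, and the single knockdowns gave -0.52, -0.46, -0.50 and -0.39, all called.

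Mrpl12 forms the mobile stalk of the large subunit, which recruits the translation GTPases. Its gene lies on chromosome 11 from 120484613 to 120489065 on the forward strand. It stood at 132, 134 and 149 CPM in EGFPKD, and at 102 to 111 CPM in all 12 knockdown libraries. The highest knockdown value, in replicate 2 of Ddx54KD, was well under the lowest control value. The mean log2 change was -0.39 ± 0.04 (edgeR adjusted p = 7.16e-08), and the 4 knockdowns gave -0.39, -0.40, -0.40 and -0.37. It had the smallest p of all members in the mean and in each single knockdown.

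Mrps12 lies in the decoding centre of the small subunit. Its gene lies on chromosome 7 from 28739641 to 28741820 on the reverse strand. EGFPKD libraries held 54.5, 52.4 and 59.2 CPM. Ddx10KD held 45.1, 40.5 and 38.9 CPM, Ddx24KD 47.5, 47.6 and 41.4 CPM, Ddx27KD 47.1, 40.0 and 39.5 CPM, and Ddx54KD 45.1, 42.0 and 35.1 CPM. Replicate 3 was the lowest in each knockdown, and no knockdown value reached the controls. The mean log2 change was -0.39 ± 0.05 (edgeR adjusted p = 9.58e-06). All 4 single changes, -0.42, -0.29, -0.40 and -0.45, were called, although that of Ddx24KD was not with the libraries numbered 3 left out.

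Mrpl14, at the interface of the subunits, is encoded on chromosome 17 from 45686322 to 45698495 on the forward strand. It stood at 18.6, 19.9 and 18.9 CPM in EGFPKD, and at 13.4, 13.8 and 14 CPM in Ddx10KD. Ddx24KD held 14.7, 15 and 14.4 CPM and Ddx27KD 14.3, 14.7 and 12.7 CPM. In Ddx54KD it was 14.7, 17.4 and 18.1 CPM, the group closest to the controls. The log2 changes were -0.47, -0.38, -0.46 and -0.19, with a mean of -0.38 ± 0.06 (edgeR adjusted p = 2.27e-05). The Ddx54KD call (edgeR adjusted p = 0.0414) was lost without Ddx54KD replicate 1 (0.261) or 2 (0.0842), EGFPKD replicate 1 (0.0932), 2 (0.0964) or 3 (0.0797), Ddx10KD replicate 1 (0.0511) or 3 (0.0511), without the block (0.0969), by DESeq2 (0.0862), with upper-quartile factors (0.0549), with a filter of 10 CPM in 3 libraries (0.0559) and with no count filter (0.0526). The exons of Mrpl14 overlap those of Tmem63b on the opposite strand, and without strand in the counting such reads cannot be told apart. The expected counts of Mrpl14 were whole numbers in all 15 libraries, so the counts show no division of its reads with another gene.

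Few members moved the other way. Mrps17, a small subunit protein with a bacterial homologue, stood at 50.9, 47.9 and 51.8 CPM in EGFPKD. It stood at 60.1, 62.3 and 64.6 CPM in Ddx10KD, 59.8, 55.3 and 64.2 CPM in Ddx24KD, 56.9, 59.0 and 59.6 CPM in Ddx27KD, and 56.2, 58.1 and 53.2 CPM in Ddx54KD. All 12 values were above the controls. The mean log2 change was 0.23 ± 0.04 (edgeR adjusted p = 1.43e-04), a level 17.6% higher. The change in Ddx54KD, 0.15 (adjusted p = 0.0277), was not called without the block (0.0742), by DESeq2 (0.0533), or without EGFPKD replicate 2 (0.153), EGFPKD replicate 3 (0.0580), Ddx54KD replicate 1 (0.0924) or Ddx54KD replicate 2 (0.218). Its gene lies on chromosome 5 from 129715497 to 129722556 on the forward strand.

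Mrps2, also of the small subunit with a bacterial homologue, lies on chromosome 2 from 28468066 to 28471178 on the forward strand. It held 115, 115 and 107 CPM in EGFPKD and 122 to 131 CPM in the knockdowns, again without overlap. The mean log2 change was 0.18 ± 0.03 (edgeR adjusted p = 1.08e-05), with 0.19, 0.19, 0.16 and 0.19 in the 4 knockdowns. Mrpl23, a protein at the rim of the exit tunnel, held 25.9, 29.4 and 28.8 CPM in EGFPKD and 28.8 to 35.4 CPM in the knockdowns, which overlapped in part. Its mean change was 0.18 ± 0.04 (adjusted p = 0.00133), and its calls in Ddx10KD (0.17) and Ddx27KD (0.17) were lost without the block (adjusted p = 0.135 in each) and without EGFPKD replicate 2 (0.0513 and 0.0512). Its Ddx10KD call also needed Ddx10KD replicate 3 (0.0811 without it), and its Ddx27KD call Ddx27KD replicates 1 and 2 (0.0501 and 0.0872 without each).

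Mrpl52, specific to mitochondria, held 41.1, 44.6 and 40.4 CPM in EGFPKD and 41.7 to 50.3 CPM in the knockdowns. Its mean change of 0.15 ± 0.04 (edgeR adjusted p = 0.00401) was lost without the block (0.0560), and so were its calls in Ddx24KD, Ddx27KD and Ddx54KD. Its Ddx27KD call was also lost when EGFPKD replicate 1 or 2 or Ddx27KD replicate 1 or 2 was left out (adjusted p of 0.0546, 0.0574, 0.110 and 0.0630). Mrps23 held 36.0 to 40.4 CPM in EGFPKD and 37.0 to 44.4 CPM in the knockdowns, which overlapped. Its mean change of 0.11 (adjusted p = 0.0349) was lost without any of the 3 EGFPKD libraries (0.0551 to 0.209), without replicates 1 or 2 of Ddx10KD, 1 or 3 of Ddx24KD, 1 of Ddx27KD or 2 of Ddx54KD (0.0502 to 0.0631), and without the block (0.112). In Ddx54KD its change of 0.17 (adjusted p = 0.0148) was lost without Ddx54KD replicate 2 (0.151), EGFPKD replicate 1 (0.0795) or the block (0.0720).

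**Figure D3:**
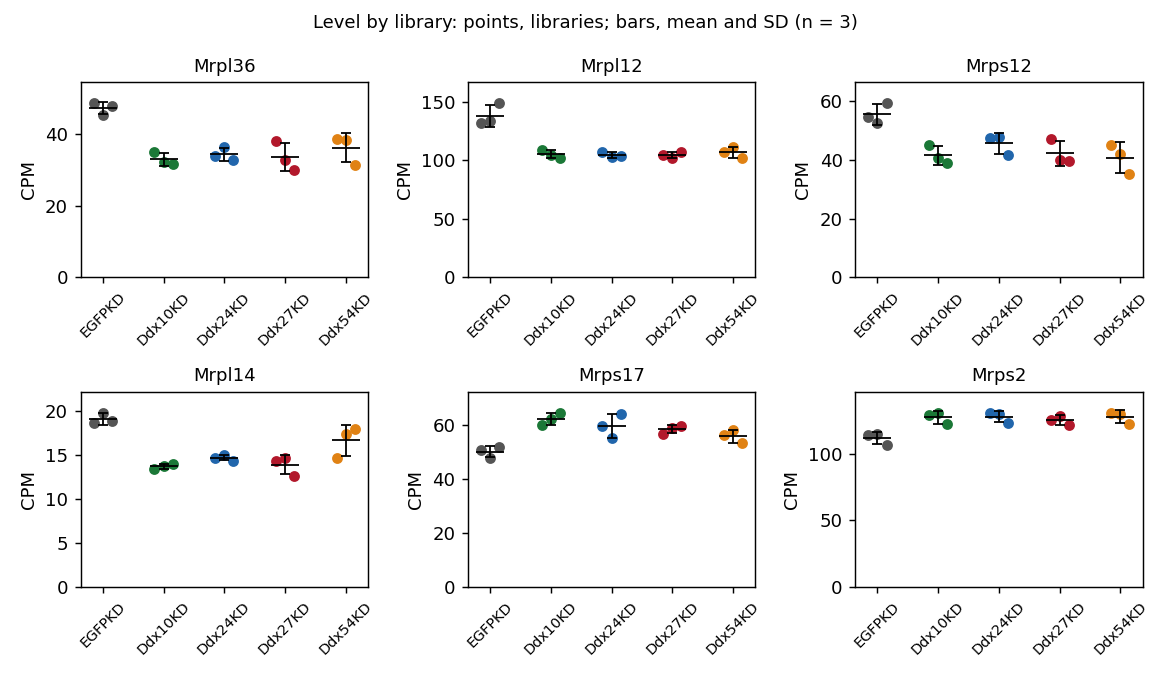
Level in CPM (vertical axes, from 0) of 6 members in the 15 libraries, by group (points, libraries; bars, mean and SD, n = 3). Every knockdown value of Mrpl36, Mrpl12, Mrps12 and Mrpl14 lies below the 3 EGFPKD values, and every one of Mrps17 and Mrps2 above them.

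By subunit, 37 of 50 large subunit members fell and 2 rose in the mean of the 4 knockdowns (median log2 change -0.15). Of the 26 small subunit members 15 fell and 3 rose (median -0.13). Of all genes 25.2% were lower and 25.9% higher in that comparison. In Ddx10KD the counts lower were 30 of 50 and 9 of 26, and the medians -0.14 and -0.08. In Ddx24KD they were 26 and 15, in Ddx27KD 33 and 14, and in Ddx54KD 24 and 12. The shares of all genes lower were 21.3% in Ddx10KD, 19.9% in Ddx24KD, 22.6% in Ddx27KD and 18.8% in Ddx54KD. The difference between the subunits was not tested. Without the block, the large subunit counts in the mean were 28 lower and 1 higher, and those of the small subunit 14 lower and 2 higher. The counts lower in the large and small subunit were then 18 and 4 in Ddx10KD and 20 and 9 in Ddx24KD. They were 23 and 11 in Ddx27KD, and 12 and 7 in Ddx54KD. In the same fit 14.5% of all genes were lower in Ddx10KD, 11.2% in Ddx54KD and 19.1% in the mean. The small subunit count in Ddx10KD, 4 of 26, lay near the 14.5% of all genes.

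Split by ancestry, 24 of 30 large subunit proteins with bacterial homologues fell and 1 rose (median -0.18). Of the 20 that are specific to mitochondria 13 fell and 1 rose (median -0.13). In the small subunit 10 of 16 with homologues fell and 2 rose (median -0.14), and 5 of 10 specific ones fell and 1 rose (median -0.12). All 4 classes thus held members called lower and members called higher. Of all genes 25.2% were lower and 25.9% higher in the mean of the 4 knockdowns. Without the block the counts lower were 21, 7, 10 and 4 in the same order. The 2 classes specific to mitochondria then had 0 higher. In that fit 19.1% of all genes were lower and 19.6% higher.

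Within the large subunit, 3 of the 4 stalk members fell and none rose. In that comparison, the mean of the 4 knockdowns, 25.2% of all genes were lower and 25.9% higher. Mrpl12 was described above, Mrpl11, which forms the stalk base, changed by -0.21 (edgeR adjusted p = 2.13e-05) and Mrpl10, which anchors the copies of Mrpl12, by -0.18 (2.34e-04). Mrpl53 had 0.07 (0.528), at about 6 CPM. Around the exit tunnel 4 of 6 members fell and 1, Mrpl23, rose. Mrpl22 changed by -0.24 (adjusted p = 3.73e-04), Mrpl24 by -0.18 (1.72e-04), Mrpl47 by -0.18 (0.00167) and Mrpl45, which tethers the ribosome to the inner membrane, by -0.12 (0.00313). Mrpl17 had -0.07 (0.112). In the central protuberance, the lobe of the large subunit next to the small one, 4 of 6 members fell. They were Mrpl40 (-0.26, adjusted p = 2.01e-05), Mrpl48 (-0.21, 9.03e-04), Mrpl18 (-0.16, 0.00102) and Mrpl38 (-0.12, 0.0136). Mrpl46 had -0.14 (0.0700) and Mrpl27 0.04 (0.689).

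The 3 Mrps18 paralogues are related to 1 bacterial protein and occupy different sites of the mitochondrial ribosome. In the split by ancestry Mrps18c stood with the bacterial homologues and Mrps18a and Mrps18b, which sit at sites of their own, with the proteins specific to mitochondria. None was called in any comparison with EGFPKD. Their mean log2 changes were -0.00 (Mrps18a, edgeR adjusted p = 0.997), -0.05 (Mrps18b, 0.191) and -0.05 (Mrps18c, 0.420). Group means of Mrps18b ran from 125 CPM in Ddx10KD to 131 CPM in EGFPKD. A call that misses the threshold does not show equal levels.

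The lowest members on the TPM scale, Mrpl19 (-0.13, edgeR adjusted p = 0.0432), Mrpl35 (-0.11, 0.0410) and Mrpl41 (-0.20, 0.0154), were called lower in the mean of the 4 knockdowns. The calls of Mrpl19 and Mrpl35 were lost without the block (0.134 and 0.0862), without EGFPKD replicate 2 (0.109 and 0.0510) or 3 (0.345 and 0.317), and by DESeq2 (0.0655 and 0.0983). That of Mrpl19 was also lost without replicates 1 or 2 of Ddx10KD, 3 of Ddx24KD, 1 or 3 of Ddx27KD or 3 of Ddx54KD (0.0539 to 0.0685). That of Mrpl35 was also lost without replicates 2 or 3 of Ddx10KD, 3 of Ddx24KD, 1 of Ddx27KD, or 1 or 3 of Ddx54KD (0.0510 to 0.0650). That of Mrpl41 was lost without EGFPKD replicate 1 (0.134) or 3 (0.146). The highest, Mrpl42, had -0.07 (0.0545). Mrps36, the member that is no ribosome subunit, stood at 32.4, 32.4 and 32.5 CPM in EGFPKD and 24.0 to 29.7 CPM in the knockdowns, and fell by 0.27 on the log2 scale (SE 0.04, adjusted p = 1.20e-05).

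**Figure D4:**
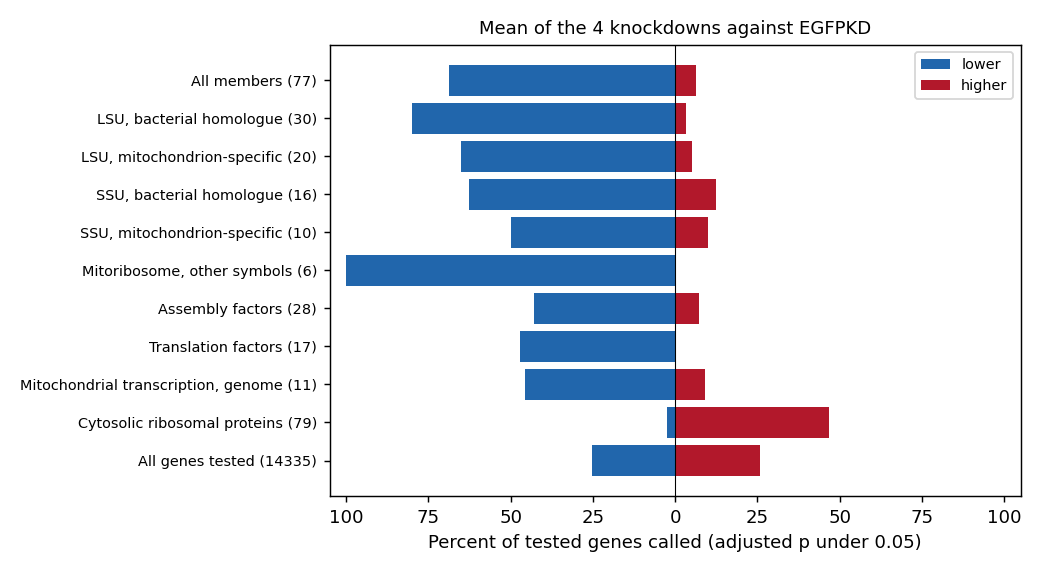
Percent of tested genes called lower (left, blue) or higher (right, red) in the mean of the 4 knockdowns against EGFPKD, by gene list, with the number of tested genes in parentheses. Mitochondrial ribosome lists reach to the left, cytosolic ribosomal proteins to the right, and all tested genes show 25.2% lower and 25.9% higher.

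Few members were called between knockdowns, and in each pair their share was near or below that of all genes. Over the 6 pairs, 13 calls were made in all, every one in a pair with Ddx10KD. The pairs with Ddx10KD also had the most calls over all genes. Between Ddx10KD and Ddx24KD 2 of 77 members were called (5.41% of all genes), between Ddx10KD and Ddx27KD 4 (5.34%), and between Ddx10KD and Ddx54KD 7 (10.6%). No member was called between Ddx24KD and Ddx27KD (0.0558% of all genes), Ddx24KD and Ddx54KD (1.74%) or Ddx27KD and Ddx54KD (2.62%) by edgeR, DESeq2 or limma-voom. At an unadjusted p under 0.05 edgeR gave 1, 7 and 8 members in these last 3 pairs, where members' log2 differences ranged from -0.27 to 0.17 with a median SE of 0.05. Without the block no member was called in any of the 6 pairs. With Ddx24KD replicate 2 left out, 8 and 12 members were called between Ddx10KD and Ddx27KD and between Ddx10KD and Ddx54KD, and 1 in each of the pairs of Ddx54KD with Ddx24KD and Ddx27KD.

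Mrpl38, a protein of the central protuberance encoded on chromosome 11 from 116131817 to 116138868 on the reverse strand, was the member called in all 3 pairs with Ddx10KD. It stood at 79.6, 88.4 and 94.2 CPM in EGFPKD and at 90.5, 89.2 and 91.3 CPM in Ddx10KD, within the range of the controls. In Ddx24KD it was 75.3, 71.0 and 80.2 CPM, in Ddx27KD 76.1, 72.0 and 78.1 CPM, and in Ddx54KD 78.9, 82.8 and 80.1 CPM, all below the 3 Ddx10KD values. The log2 difference of Ddx10KD was 0.26 to Ddx24KD (edgeR adjusted p = 0.00532), 0.26 to Ddx27KD (0.00561) and 0.16 to Ddx54KD (0.0410). Without the block these were not called (adjusted p = 0.0956, 0.109 and 0.218), and the last was also lost without any 1 Ddx10KD library (0.0783 to 0.156), Ddx54KD replicate 1 or 3 or EGFPKD replicate 2. Against EGFPKD the changes were 0.05 (0.450), -0.21 (0.00227), -0.21 (0.00177) and -0.11 (0.0755). The mean over the 4 knockdowns (-0.12) lost its call without EGFPKD replicate 2 (0.104) or 3 (0.159) and without the block (0.0526).

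The other calls between knockdowns were single genes. Mrpl18 was lower in Ddx10KD than in Ddx24KD by 0.16 on the log2 scale (edgeR adjusted p = 0.0447). That call was lost in 9 of the 15 fits with 1 library of any group left out (adjusted p up to 0.178). Mrpl32 (0.26, 0.0210), Mrpl15 (0.16, 0.0211) and Mrps9 (0.16, 0.0453) were higher in Ddx10KD than in Ddx27KD. Each of these 3 calls was lost without Ddx10KD replicate 2 (adjusted p of 0.0952, 0.136 and 0.180), without Ddx10KD replicate 3 (0.0706, 0.0772 and 0.131), and without Ddx27KD replicate 1 (0.0806, 0.0668 and 0.115) or 2 (0.0664, 0.148 and 0.240). Against Ddx54KD, Ddx10KD was lower in Mrpl45 (-0.18, 0.00524), Mrpl30 (-0.20, 0.00726) and Mrps36 (-0.22, 0.0109), and also in Mrpl14, Mrpl34 and Mrpl42. The calls of Mrpl30 and Mrps36 were lost without Ddx10KD replicate 2 (0.0634 and 0.0681), those of Mrpl45 and Mrps36 without Ddx54KD replicate 2 (0.0502 and 0.0538), and that of Mrps36 also without Ddx10KD replicate 3 (0.0679). Those of Mrpl14, Mrpl34 and Mrpl42 were lost without Ddx10KD replicate 2 (0.115, 0.218 and 0.0604) or 3 (0.0689, 0.0733 and 0.126) and without Ddx54KD replicate 2 (0.0865, 0.176 and 0.0525) or 3 (0.162, 0.112 and 0.0633).

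Other genes of mitochondrial gene expression were read from lists of known factors over the mean of the 4 knockdowns. All 6 tested mitochondrial ribosomal proteins with other symbols fell (median -0.18), among them Dap3 (-0.21, edgeR adjusted p = 2.76e-05), Ptcd3 (-0.18, 4.91e-05) and Chchd1 (-0.15, 0.00267), all of the small subunit. Of 28 tested factors for the assembly of the mitochondrial ribosome 12 fell and 2 rose (median -0.09). Of all genes 25.2% were lower and 25.9% higher in that comparison. Rpusd4, a pseudouridine synthase of the large mitochondrial RNA, changed by -0.39 (2.69e-05), Rbfa, which acts in small subunit maturation, by -0.35 (1.15e-06) and the GTPase Noa1 by -0.24 (4.15e-05). Trub2 and Mettl17, both at 0.13, were the 2 that rose (0.0106 and 0.0134). By DESeq2 Mettl17 was not called (0.0692), and without the block neither was called (0.0767 and 0.0746). In that fit 8 assembly factors and 5 of the 6 proteins with other symbols were lower, against 19.1% of all genes.

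Of 17 tested mitochondrial translation factors 8 fell and none rose (median -0.11). Of all genes 25.2% were lower in the same comparison. Without the block 6 of these 17 were lower, against 19.1% of all genes. Tufm, the elongation factor that brings aminoacyl-tRNA, changed by -0.27 (edgeR adjusted p = 8.35e-07), Gfm2, which acts in ribosome recycling, by -0.21 (1.21e-05) and the formyltransferase Mtfmt by -0.22 (6.16e-04). Among 11 tested genes of mitochondrial transcription and genome upkeep 5 fell and 1 rose (median -0.12). Without the block 4 of them were lower and 1 higher in the mean. For the single knockdowns that fit gave 0 lower in Ddx10KD, 2 in Ddx24KD, 3 in Ddx27KD and 0 in Ddx54KD. With the block the counts lower were 2, 4, 4 and 2 in the same order, against 21.3%, 19.9%, 22.6% and 18.8% of all genes. The counts higher with the block were 2, 1, 1 and 1, against 22.8%, 21.3%, 23.3% and 20% of all genes. Ssbp1, the single-stranded DNA binding protein, changed by -0.25 (2.76e-05), the RNA polymerase Polrmt by -0.14 (0.00192) and Mterf1a by -0.34 (0.0133), while the DNA helicase Peo1 rose by 0.21 (6.61e-05).

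The cytosolic ribosome, which translates the mRNAs of all members, has its own set of protein genes, and their calls were mostly higher in the mean and in 3 knockdowns but not in Ddx10KD. Of 79 tested genes 37 rose and 2 fell in the mean of the 4 knockdowns (median 0.07). Rpl23a (0.19, edgeR adjusted p = 4.52e-05) and Rpsa (0.16, 6.80e-05) rose, and Rpl3 (-0.27, 7.95e-08) and Rpl10a (-0.12, 0.00125) fell. Of all genes 25.9% were higher and 25.2% lower in that comparison, and of these 79 genes 46.8% and 2.53%. In Ddx10KD 7 rose and 14 fell (median -0.01), which is 8.86% and 17.7% against 22.8% and 21.3% of all genes. In Ddx24KD 46 rose and 1 fell (0.12), in Ddx27KD 34 and 2 (0.09) and in Ddx54KD 35 and 1 (0.09). Of all genes 21.3% were higher in Ddx24KD, 23.3% in Ddx27KD and 20% in Ddx54KD. Without the block 12 rose and 2 fell in the mean, 3 and 8 in Ddx10KD, 14 and 1 in Ddx24KD, 8 and 2 in Ddx27KD and 6 and 1 in Ddx54KD. The share higher in the mean was then 15.2%, below the 19.6% of all genes. Many of these genes have processed pseudogenes that can share reads with them, so their values are less certain. The contrast between both ribosomes was read from counts and medians and was not tested.

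Many members start beside another gene on the opposite strand. Of the 77 members, 33 (42.9%) had the start of a protein-coding gene on the other strand within 1000 bases in GENCODE M21, against 2020 of the 13271 tested protein-coding genes matched by symbol (15.2%). Mrpl46 and Mrps11 are each other's partner. Of the 33 members with such a partner 25 were called lower, and of the 44 without 28. Of the 31 partners tested, 7 were lower (22.6%, against 25.2% of all genes) and 4 higher (12.9%, against 25.9%), with a median log2 change of -0.02 (6 and 4 without the block). These shares lie near or below those of all genes.

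Among the members with a tested partner, Mrpl36, Mrps12, Mrpl14 and Mrpl40 had the most negative changes, and of their 4 partners only that of Mrpl14 was called. The GENCODE model of Mrpl36 overlaps at its start with that of Ndufs6, a subunit of respiratory complex I, and Ndufs6 had -0.06 (edgeR adjusted p = 0.184). The RefSeq start used for the sequence of Mrpl36 lies 2496 bases further downstream, and Ndufs6 starts 2467 bases from it, beyond the limit of 1000 bases. The start of Sars2, the mitochondrial seryl-tRNA synthetase, lies 172 bases from that of Mrps12, and Sars2 had 0.10 (0.0752). Hira, a histone chaperone 175 bases from Mrpl40, had -0.03 (0.433). The 7 partners called lower were Psma2 (-0.28, beside Mrpl32), Ighmbp2 (-0.26, beside Mrpl21), Mitd1 (-0.21, beside Mrpl30), Mrps11 (-0.19), Tcp1 (-0.16, beside Mrpl18), Wdfy1 (-0.12, beside Mrpl44, not called without the block) and Ptcd2 (-0.12, beside Mrps27). The 4 called higher were Pnpla7 (0.84, adjusted p = 3.80e-08), beside Mrpl41, Tmem63b (0.66, 2.21e-09), beside Mrpl14, Peo1 (0.21, 6.61e-05), which GENCODE lists as Twnk, beside Mrpl43, and Klc4 (0.16, 0.0155), beside Mrpl2. These 11 partners are named because they were called.

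**Figure D5:**
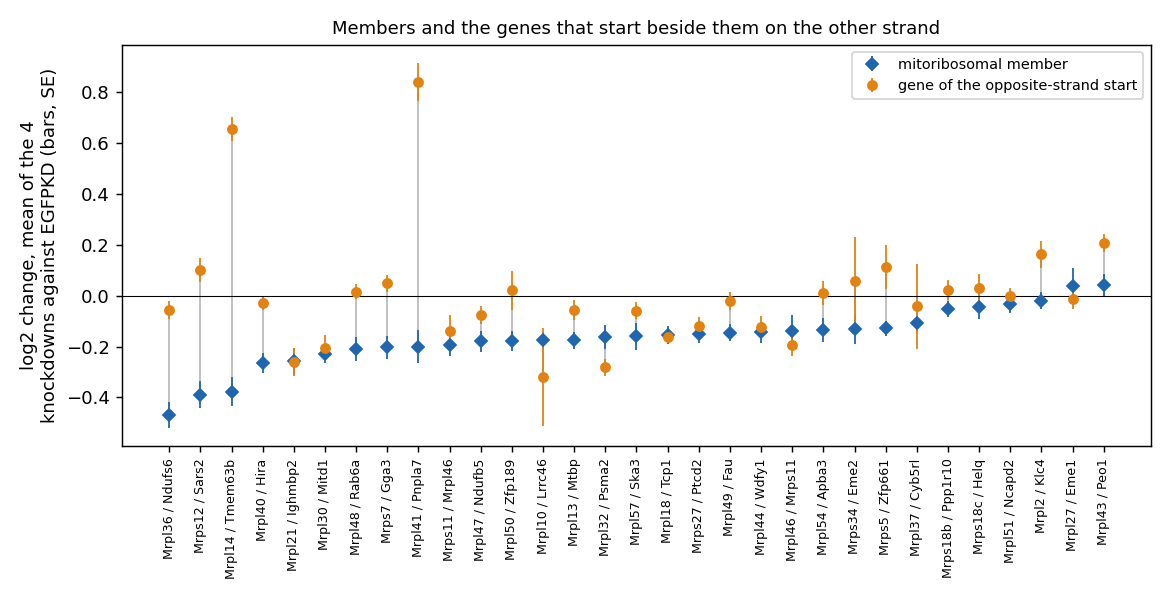
log2 change in the mean of the 4 knockdowns against EGFPKD (vertical axis, with SE) of each member (diamonds) and of the gene that starts beside it on the other strand (circles), for the 31 tested partners. Partners spread from -0.32 (Lrrc46, not called) to 0.84 (Pnpla7), and 11 of the 31 were called, 7 lower and 4 higher.

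Overlap of exons bears on how reads are counted. Exons of another annotated gene overlapped those of 8 members on the same strand and of 27 on the opposite strand. Among the 45 members with no exon overlap, 32 were lower and 5 higher (against 25.2% and 25.9% of all genes), with a median log2 change of -0.13. Members with and without an overlap were not compared by a test. Expected counts were whole numbers (within 0.005) in all 15 libraries for 1 member, Mrpl14, in some libraries for 64 and in none for 12. A count that is not whole can come from reads divided with other sequences. A deviation as small as that of Mrps26, with a lowest count of 737.01, was also taken as not whole. For how many members reads were divided therefore cannot be told from these counts.

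Promoter letters were set beside the calls of the 68 members with a window in the mean of the 4 knockdowns. Of these members 46 were lower and 5 higher, and of all genes 25.2% were lower and 25.9% higher. Counts by motif without the block are not given here. Of 13 members with the NRF1 letters 12 were lower and none higher, and of 55 without 34 were lower and 5 higher, at median log2 changes of -0.16 and -0.15. Of 12 members with the YY1 letters 10 were lower and none higher, and of 56 without 36 were lower and 5 higher (medians both -0.15). For the ETS letters the counts lower were 13 of 25 with and 33 of 43 without, and for the E-box 3 of 5 and 43 of 63. The medians with and without a motif lay within 0.05 of each other for these 4 motifs, and no difference was tested.

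The authors' deposited tables, at a posterior probability of differential expression of at least 0.95, held 2 members higher and 22 lower for Ddx10KD, 1 and 14 for Ddx24KD, 2 and 23 for Ddx27KD and 1 and 15 for Ddx54KD. Of all genes 17.1%, 12.4%, 18.3% and 13.1% passed in the authors' deposited tables. The members' median log2 ratio in the authors' deposited tables was -0.13, -0.14, -0.17 and -0.13. Ratios of group means of the libraries differed from those in the authors' deposited tables by at most 0.0066, 0.0044 and 0.0088 on the log2 scale for Ddx10KD, Ddx27KD and Ddx54KD, and by up to 0.11 for Ddx24KD. The names of these tables give RSEM and EBSeq, and how they were computed is otherwise not stated in the labels.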

How the data were processed

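Gene expression was measured by poly(A) RNA sequencing in 15 libraries, 3 in each of 5 groups taken from the labels. The authors deposited RSEM gene tables on mm10, per the submitters' processing notes, which give expected counts (RSEM's estimate of the reads of each gene, not scaled for depth) and TPM (scaled for length and depth), per the file headers. The authors also deposited a table for each knockdown with a posterior probability score per gene and a fold ratio of knockdown to control, per the file headers. For the RSEM version, aligner, annotation release and use of strand: not given in the sources used here.

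Expected counts were rounded, filtered with filterByExpr (14335 of 23845 genes, 99.97% of counts), scaled by TMM and tested in R 4.3.3 with the edgeR 4.0.16 quasi-likelihood test, in 1 fit of all libraries with the replicate number as a block. Adjusted p (Benjamini-Hochberg, all genes) under 0.05 is a call. The comparisons were each knockdown and their mean against EGFPKD, and 6 pairs of knockdowns. log2 changes carry their SE, and p values set each difference against the spread between biological replicates that remains after the block. The pairing was checked on the deviations from group means, where same-numbered libraries of different groups correlated above 0.1 in all 30 cases (0.106 to 0.335) and differently numbered ones in 0 of 60 (-0.249 to 0.053). Replicates of a group were no repeat deposits (chi-squared of 2.28 to 6.23 on average over members, where 1 is sampling noise).

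Named members are up to 5 called each way with the smallest p against EGFPKD, up to 3 each way between knockdowns, the 3 highest and 3 lowest by TPM, the Mrps18 paralogues, and called members of the stalk, exit tunnel and central protuberance. Other members called between knockdowns are named because there were few. From the other lists, up to 3 called genes each way with the smallest p are named, except 1 that is not reported here. The members and lists were chosen with earlier results of these data known. The procedure was tested on simulated data for Ddx10KD against EGFPKD, with 50 genes changed at each size. It recovered 8% of 1.1-fold, 46% of 1.25-fold, 78% of 1.5-fold and 90% of 2-fold changes. Of its 119 calls 8 (6.72%) were on unchanged genes. Changes of 1.1-fold were thus mostly missed there. Only 50 of 14335 genes were changed at each size, while 44% of all genes were called in the data for Ddx10KD. An adjusted p threshold is harder to pass where fewer genes change, so these shares do not give the recovery in the data. Alternatives were no block, RLE and upper-quartile factors, DESeq2 1.42.0, limma-voom (limma 3.58.1), other filters and thresholds, compared groups alone, and libraries left out. Promoters are from RefSeq and gene positions from GENCODE M21, both on mm10, matched by symbol (68 and 77 members); 1 partner gene was matched through an older symbol that RefSeq lists.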

Additional observations from a re-analysis of the deposited data

How the results depend on the processing

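With no replicate block, members lower fell to 23 (Ddx10KD) and 20 (Ddx54KD), members higher to 2 (Ddx27KD), 2 (Ddx54KD) and 3 (mean of the 4), and members called between Ddx10KD and Ddx24KD, Ddx27KD or Ddx54KD to 0, 0 and 0. The other counts over all 77 members against EGFPKD stayed within 1.5 times under the unpaired fit, and no median of all members changed sign. Over all genes the share lower also fell, from 21.3% to 14.5% in Ddx10KD and from 18.8% to 11.2% in Ddx54KD. In the mean that share fell from 25.2% to 19.1%. Counts by subunit and for the other gene lists moved more and stand beside their results. At an adjusted p under 0.01 members lower were 25 (Ddx10KD) and 21 (Ddx54KD), members higher 2 (Ddx27KD) and 2 (Ddx54KD), and the 3 pairs with Ddx10KD held 1, 1 and 2. Fits of the compared groups alone gave 1, 7 and 18 for those pairs, where fewer libraries enter and each pair has its own spread. A filter of 10 CPM in 3 libraries gave 5 for Ddx10KD against Ddx24KD and 1 for Ddx24KD against Ddx54KD. With all 5 libraries numbered 3 left out together (added after the values were known) the Ddx54KD median was -0.0901, members lower were 22 (Ddx10KD) and 15 (Ddx54KD), and the pairs with Ddx10KD held 1, 1 and 3.

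Leaving out 1 library at a time gave 26 (without EGFPKD replicate 3) to 43 members lower in Ddx10KD, 21 (without Ddx54KD replicate 3) to 42 in Ddx54KD, 34 to 45 in Ddx24KD, 35 to 51 in Ddx27KD and 37 to 54 in the mean. Members higher ranged from 2 to 4 in Ddx27KD and from 3 to 5 in Ddx54KD. Members called ranged from 1 to 2 (Ddx10KD against Ddx24KD), 1 to 8 (Ddx10KD against Ddx27KD), 1 to 12 (Ddx10KD against Ddx54KD) and 0 to 1 (Ddx24KD or Ddx27KD against Ddx54KD). DESeq2, limma-voom, upper-quartile or RLE factors and no count filter kept each count over all 77 members against EGFPKD within 1.5 times. For assembly factors DESeq2 gave 1 higher in the mean, against 2. Of 4541 values of named members under all alternatives 4193 kept their direction and side of the threshold, 322 lost a call, 26 gained one and 0 reversed. The cause of these changes was not tested beyond what fewer libraries or genes imply. Shares of all genes with libraries left out or at the stricter threshold are not given here. A loss of calls in members therefore cannot be told from a loss over all genes in those settings. At these depths each member had at least 128 counts in every library, and the median SE of a difference between knockdowns was 0.05 on the log2 scale.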
